A study of Mus musculus with 5 samples.

Results

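Neuroblasts are the migrating offspring of neural stem/progenitor cells (NSPCs), and in the subventricular zone they are fated to become GABAergic interneurons of the olfactory bulb. Their known program runs in steps: Dlx homeobox factors set the GABAergic fate, the SoxC factors Sox4 and Sox11 switch on neuronal genes, neuronal Elav-like proteins bind the new transcripts, and doublecortin and cell surface proteins serve migration and contact. Glutamate decarboxylase, encoded by Gad1, makes the transmitter GABA. Some of these genes are not restricted to neuroblasts: Sox4, Sox11 and Cd24a are also known from progenitors.

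The 10 genes Dcx, Dlx1, Dlx2, Gad1, Sox4, Sox11, Cd24a, Elavl3, Elavl4 and Nrxn3 were followed by symbol through a table of RNA-Seq values of proliferating mouse NSPC cultures. The table held 8 of the 10, as 14 transcripts of 22227, and the values of the transcripts were added up to 8 of 12588 gene sums. Dcx, the microtubule-binding doublecortin (chrX:143855842-143933311, 6 annotated transcripts), and Dlx1, the homeobox neighbour of Dlx2 (chr2:71528113-71533981, 6 annotated transcripts), had no line, which places them under the listing limit of the table. The lowest mean normalized count among its lines (the authors' baseMean) is 9.34. No level is given for either gene, and coordinates here and in the following are those of the mouse genome build GRCm38 with the GENCODE M21 annotation.

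The 5 libraries came from untreated cultures of the strain C57BL/6J grown with FGF-2 and EGF, each at 20 ng/ml, which keep NSPCs dividing. Of these, 2 are labelled WT (p75NTR+/+ littermates, replicates 1 and 4) and 3 are labelled p75NTR-/- (replicates 1, 2 and 4), that is, from animals without the p75 neurotrophin receptor. The labels give the cells as E12.5 embryonic NSPCs, whereas the study's methods describe adult subventricular zone NSPCs. The study calls the cultures independent preparations, but the labels name neither animals nor litters, so the errors below measure the spread between these libraries.

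The libraries held between 11688211 and 14452396 counts. Ngfr, which encodes p75NTR, went against its labels, with normalized counts of 0.981 and 2.08 in the libraries labelled WT replicates 1 and 4 and of 9.89, 141 and 251 in those labelled p75NTR-/- replicates 1, 2 and 4. The single listed Ngfr transcript spans the whole gene, so that a deleted exon cannot be told apart from the rest, and directions below refer to libraries as labelled. The first principal component (51.7% of the variance of 10786 gene sums) set the 2 libraries numbered 4 apart from the other 3, and the second (36.5%) set apart the library labelled WT replicate 1. The labels do not say what the replicate number stands for.

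Within the cultures the 8 listed genes were spread over a wide range of levels. Per transcript length, as TPM, the length-normalized share of transcripts, summed over the listed transcripts of a gene, Cd24a was highest with 249 ± 45.9 (SD, n = 5 libraries), followed by Sox4 with 98.6 ± 49.5 and Gad1 with 24.4 ± 14.3. Elavl3 (12.3 ± 7.22) and Sox11 (11.9 ± 3.35) were level with each other in this sum, and their ranges overlapped. The Elavl3 sum rests largely on Elavl3-202, a transcript of 397 bases with a mean of 7.01 TPM. None of its bases is free of other annotated Elavl3 transcripts. Elavl3-201 and Elavl3-203 had means of 2.72 and 2.52 TPM. Nrxn3 had 2.55 ± 0.599 TPM, Elavl4 1.90 ± 1.10 and Dlx2 1.19 ± 0.463, and the range of each overlapped that of the next. The ranges of Cd24a and Sox4, of Sox4 and Gad1, and of Sox11 and Nrxn3 did not overlap. Cd24a ranked 608th by mean TPM among the 12588 gene sums and Dlx2 ranked 11324th.

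**Figure D1:**
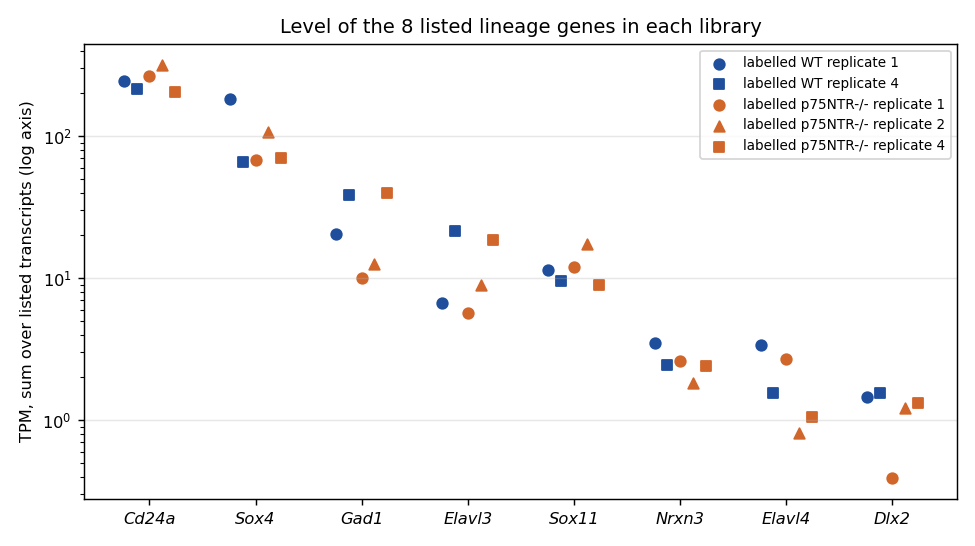
TPM (log axis) of each listed gene in the 5 libraries, with colours for the label and symbol shapes for the replicate number. Cd24a and Sox4 lie above the other 6 genes in every library, the squares of replicate number 4 stand above the rest for Gad1 and Elavl3, and Dlx2 falls to 0.39 TPM in 1 library.

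These genes were measured beside progenitor transcripts, some of them abundant. All 8 neural stem and radial glia markers looked for (Nes, Sox2, Vim, Fabp7, Slc1a3, Hes5, Prom1 and Pax6) were listed, and together they held 7968 to 9394 TPM in a library. Most of this sum was Fabp7, with 6270 to 6927 TPM, and Vim had 781 to 1676. The levels of the others were lower, down to 5.88 to 128 TPM for Hes5 and 0.30 to 1.33 for Prom1. None of 8 glutamatergic neuron genes, among them Eomes, Tbr1 and Slc17a7, had a line. Among the defining genes of a mature GABAergic neuron, Gad2, the other glutamate decarboxylase, and Slc32a1, which loads GABA into vesicles, had no line, and neither had the interneuron products Npy, Sst, Vip, Th and Calb1. The genes were thus measured in cultures in which a neuroblast could not be identified by Dcx, Dlx1, Dlx5 or Dlx6.

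None of the 8 gene sums was called different between the labels. Called were gene sums with an adjusted p (limma, Benjamini-Hochberg, over all 12588 gene sums) under 0.05 that changed by 1.5-fold or more and had a mean of 50 normalized counts or more, which 0.00794% of all gene sums did (1 gene). With the same criteria DESeq2 called 0.0556% of all gene sums. edgeR called 0.0% of the 12297 gene sums that its expression filter kept. Shares given for edgeR below are of the gene sums or transcripts it tested. Neither tool called any of the 8 genes. Dlx2 and Elavl4 lie under the minimum mean and could not have been called with these criteria. The adjusted p of limma ran from 0.93 to 0.94 over the 8 genes, and no gene had an unadjusted p under 0.05 in limma, in edgeR or in DESeq2, where 2.08%, 2.11% and 2.99% of all gene sums did. The median log2 fold change (labelled p75NTR-/- minus WT) of the 8 genes was -0.49, with 6 of 8 below 0, beside 0.0039 and 49.3% below 0 over all gene sums. Since RNA was pooled from whole cultures, fewer cells of a type and less RNA per cell cannot be told apart.

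**Figure D2:**
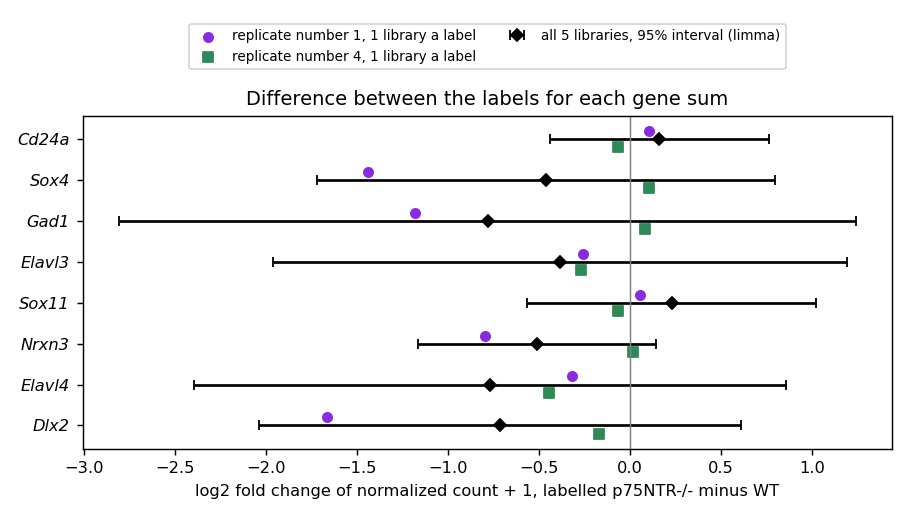
Log2 fold change of each gene sum between the labels (normalized count + 1, p75NTR-/- minus WT), for all 5 libraries with the 95% interval of limma (diamonds) and for the single pairs of libraries numbered 1 (circles) and 4 (squares). All 8 intervals include 0, and the pair numbered 4 lies between -0.45 and 0.10.

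Dlx2, a homeobox factor that acts with Dlx1 in GABAergic progenitors, is encoded at chr2:71543408-71546754 and was listed with 1 transcript. Its normalized counts were 14.7 and 15.6 in the libraries labelled WT replicates 1 and 4, and 3.96, 12.0 and 13.7 in those labelled p75NTR-/- replicates 1, 2 and 4. The labels did not overlap, and Dlx2 was the 1 gene of 8 for which this held, where 7.53% of all gene sums were lower, 7.52% were higher and 15.0% did not overlap in either direction. These values rest on 15, 15, 4, 10 and 13 counts. The exact 95% Poisson interval of the lowest, 1.08 to 10.1 normalized counts, reaches above the lower bounds of the other 4, which start between 5.76 and 8.73, and it covers counting error only. The log2 fold change was -0.72 (SE 0.52, 95% interval -2.04 to 0.61, limma adjusted p = 0.93), and it was -0.22 without the library labelled p75NTR-/- replicate 1.

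Sox4, a SoxC factor of a single exon (chr13:28948919-28953713), had normalized counts of 2028 and 734 in the libraries labelled WT replicates 1 and 4, and of 748, 1175 and 788 in those labelled p75NTR-/- replicates 1, 2 and 4. One library, labelled WT replicate 1, was thus high, and the other WT library was the lowest of the 5. The log2 fold change of -0.46 (SE 0.49, interval -1.72 to 0.79, limma adjusted p = 0.93) turned to 0.27 without WT replicate 1. Within number 1 it was -1.44 and within number 4 it was 0.10, each from a single pair of libraries.

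Sox11, the second SoxC factor (chr12:27334264-27342574, 1 exon), had 105 and 86.3 normalized counts in the WT libraries and 109, 155 and 82.4 in the p75NTR-/- libraries, in the same order of replicates. The labels overlapped, and both libraries numbered 4 lay under the other 3. Between the labels the log2 fold change was 0.23 (SE 0.31, interval -0.57 to 1.02, limma adjusted p = 0.93), and it was -0.0076 without p75NTR-/- replicate 2. The third SoxC gene, Sox12, ranged from 45.8 to 78.1 normalized counts and had a log2 fold change of 0.01 (SE 0.32). The SoxC genes thus differed in level, with Sox4 above Sox11 in TPM in all 5 libraries, whereas none was called between the labels.

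Elavl3 (HuC) and Elavl4 (HuD) encode RNA-binding proteins that stabilise and splice neuronal transcripts. Elavl3 (chr9:22015005-22052023, 3 of 3 annotated transcripts listed) had 78.5 and 215 normalized counts in the WT libraries and 65.3, 84.1 and 179 in the p75NTR-/- libraries. Its level followed the replicate number, with both libraries numbered 4 above the other 3. All 3 transcripts, Elavl3-201, Elavl3-202 and Elavl3-203, were likewise highest in the libraries numbered 4, by 2.13-fold, 3.14-fold and 3.00-fold in the mean. Between the labels the log2 fold change of the gene was -0.39 (SE 0.62, interval -1.96 to 1.19, limma adjusted p = 0.94), and it turned to 0.34 without WT replicate 4.

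Elavl4 (chr4:110203722-110351909) was listed with 2 of 12 annotated transcripts, which differ by 42 coding bases. The bases that Elavl4-203 has and Elavl4-201 lacks are shown because reads over this stretch are what tells the transcripts apart (chr4:110206660-110206701, minus strand, coding positions 789 to 830 of Elavl4-203, all in lower case).
Elavl4-203 insert: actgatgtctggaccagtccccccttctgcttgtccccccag
The gene had 80.5 and 36.4 normalized counts in the WT libraries and 64.3, 18.0 and 26.4 in the p75NTR-/- libraries, so that the library numbered 1 was the highest under each label. Between the labels the gene had a log2 fold change of -0.77 (SE 0.63, interval -2.39 to 0.86, limma adjusted p = 0.93), which was -0.21 without WT replicate 1, -0.38 without p75NTR-/- replicate 2, -1.27 without p75NTR-/- replicate 1 and -1.33 without WT replicate 4. Elavl4-201, without the insert, had a log2 fold change of -1.24 (SE 0.71), and Elavl4-203 of -0.19 (SE 0.66). The share of Elavl4-201 in the counts of the gene was 59.8% and 65.7% in the WT libraries and 47.7%, 40.0% and 44.0% in the p75NTR-/- libraries. The shares did not overlap between the labels, but the 95% Wilson intervals did: 48.9% to 69.7% for WT replicate 1 against 36.0% to 59.6% for p75NTR-/- replicate 1. No exonic base of either transcript is free of other annotated Elavl4 transcripts, so the split between them is an estimate of the quantification. Of the other family members, the ubiquitous Elavl1 (HuR) had 796 to 1139 normalized counts, did not overlap between the labels and had a log2 fold change of 0.29 (SE 0.18), and Elavl2 (HuB) had 81.5 to 112 and -0.09 (SE 0.21).

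Gad1 (chr2:70553072-70602014) varied most of the 8 genes, by 5.06-fold between the highest and the lowest library. Its normalized counts were 665 and 1404 in the libraries labelled WT replicates 1 and 4, and 293, 406 and 1483 in those labelled p75NTR-/- replicates 1, 2 and 4. Both libraries numbered 4 lay above the other 3, with a ratio of the means of 3.17, and the labels overlapped. The log2 fold change between the labels was -0.78 (SE 0.79, interval -2.81 to 1.24, limma adjusted p = 0.93), with -1.18 within number 1 and 0.08 within number 4. Leaving out single libraries moved it to -0.25 (WT replicate 4), -0.32 (p75NTR-/- replicate 1), -1.32 (WT replicate 1) and -1.48 (p75NTR-/- replicate 4).

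Of 8 annotated Gad1 transcripts, 2 were listed, and the second is annotated as a target of nonsense-mediated decay. Gad1-201 holds 17 exons and the full coding sequence of 1779 bases, whereas Gad1-203 holds 9 exons and 669 coding bases, of which 635 (94.9%) are shared with Gad1-201. The stretch that ends its reading frame is the start of an 80-base exon (chr2:70584420-70584456, plus strand), with the stop codon in capitals.
Gad1-203 exon start: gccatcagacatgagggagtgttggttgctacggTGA
No exonic base of Gad1-203 and 2 of Gad1-201 lie outside other annotated Gad1 transcripts, so the split between them is an estimate of the quantification. By this estimate Gad1-201 differed between the replicate numbers, with 597 and 1338 normalized counts in the WT libraries and 247, 364 and 1420 in the p75NTR-/- libraries. Gad1-203 varied far less, with 68.7 and 66.6 in the WT libraries and 45.5, 42.0 and 63.4 in the p75NTR-/- libraries. Its estimated share of the Gad1 counts was lowest in the libraries numbered 4, at 4.74% and 4.27% (95% Wilson intervals 3.73% to 6.01% and 3.33% to 5.46%), and 10.3% to 15.5% in the other 3. Gad1-203 did not overlap between the labels, with a log2 fold change of -0.44 (SE 0.26, limma adjusted p = 0.96).

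The 3 genes whose pattern over the 5 libraries was most like that of Gad1 were Bhlhe41, Zc3h6 and Gadd45b, with root mean square differences of 0.070, 0.093 and 0.116 between centred log2 values, where the median of 10786 genes was 0.965. Bhlhe41, a basic helix-loop-helix repressor, had 389 and 829 normalized counts in the WT libraries and 155, 249 and 885 in the p75NTR-/- libraries. The points are 5 libraries of which 2 stand apart, and all 3 genes share with Gad1 the higher values in both libraries numbered 4. For Dcx no such genes can be given.

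Among the cell surface genes, Cd24a, which encodes a small glycosyl-phosphatidylinositol-anchored protein of neuroblasts and ependymal cells (chr10:43578284-43584265), was the most even of the 8 genes. It had 487 and 427 normalized counts in the WT libraries and 522, 620 and 408 in the p75NTR-/- libraries, a range of 1.52-fold. Both libraries numbered 4 lay under the other 3, by 0.768-fold in the mean. The log2 fold change was 0.16 (SE 0.24, interval -0.44 to 0.76, limma adjusted p = 0.93), so that a difference of more than 1 on the log2 scale between the labels lies outside the interval. With single libraries left out, this fold change was 0.02 without p75NTR-/- replicate 2, 0.07 without WT replicate 4, 0.26 without WT replicate 1 and 0.32 without p75NTR-/- replicate 4.

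Nrxn3 encodes neurexin 3, a presynaptic adhesion protein made as long alpha and short beta forms from separate promoters (chr12:88722876-90334935). Its normalized counts were 326 and 229 in the WT libraries and 187, 162 and 231 in the p75NTR-/- libraries, and the labels overlapped by the libraries numbered 4. A log2 fold change of -0.51 (SE 0.25, interval -1.16 to 0.14) had the smallest unadjusted p of the 8 genes, with a limma adjusted p of 0.93. It was -0.80 within number 1 and 0.02 within number 4, and -0.26 without WT replicate 1.

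Of 13 annotated Nrxn3 transcripts, 3 were listed. Nrxn3-205 has 20 exons and 4713 coding bases, and Nrxn3-202 has 7 exons and 1701 coding bases, of which 1451 (85.3%) lie in Nrxn3-205 as well. Their first coding bases are shown because they lie far apart and are what the other transcript lacks (chr12:88795185-88795244 for Nrxn3-205 and chr12:89813400-89813459 for Nrxn3-202, plus strand, with the start codon in capitals).
Nrxn3-205 coding start: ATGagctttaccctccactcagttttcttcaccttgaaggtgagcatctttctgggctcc
Nrxn3-202 coding start: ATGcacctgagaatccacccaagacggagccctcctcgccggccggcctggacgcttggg
Nrxn3-208 has 21 exons and is annotated as a target of nonsense-mediated decay. It shares 4066 of its 4173 coding bases (97.4%) with Nrxn3-205, and 2 of its exons, of 78 and 706 bases, touch no exon of Nrxn3-205. Of the 4713 coding bases of Nrxn3-205, 4066 are shared, so the 27 bases below are not the whole difference. Nrxn3-208 lacks this coding stretch of Nrxn3-205 (chr12:89354453-89354479, plus strand), given in lower case.
Nrxn3-205 stretch: actgtatcaggataaactgtaactcca

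The Nrxn3 transcripts did not move together. Nrxn3-205 had 241 and 137 normalized counts in the libraries labelled WT replicates 1 and 4, and 58.4, 82.9 and 124 in those labelled p75NTR-/- replicates 1, 2 and 4. Every p75NTR-/- library lay under both WT libraries. Its log2 fold change was -1.10 (SE 0.45, interval -2.31 to 0.11), with a limma adjusted p of 0.96 and adjusted p-values of 1 in edgeR and DESeq2. It was -2.03 within number 1 and -0.15 within number 4.

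Nrxn3-208, in contrast, had 55.9 and 75.9 normalized counts in the WT libraries and 84.1, 66.1 and 95.1 in the p75NTR-/- libraries, with a log2 fold change of 0.31 (SE 0.27, limma adjusted p = 0.96). Nrxn3-202, the shorter coding transcript, was highest in p75NTR-/- replicate 1 with 44.5 and between 12.7 and 28.5 in the other 4. The share of Nrxn3-205 in the gene's counts was 74.1% and 60.0% in the WT libraries and 31.2%, 51.1% and 53.4% in the p75NTR-/- libraries. The 95% Wilson intervals of WT replicate 1 (69.1% to 78.5%) and p75NTR-/- replicate 1 (25.0% to 38.1%) were far apart, whereas those of WT replicate 4 (53.4% to 66.2%) and p75NTR-/- replicate 4 (46.8% to 59.9%) overlapped. These intervals cover counting error only. Of Nrxn3-205, 1492 exonic bases lie in no other annotated Nrxn3 transcript, and of Nrxn3-208 and Nrxn3-202 none do.

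**Figure D3:**
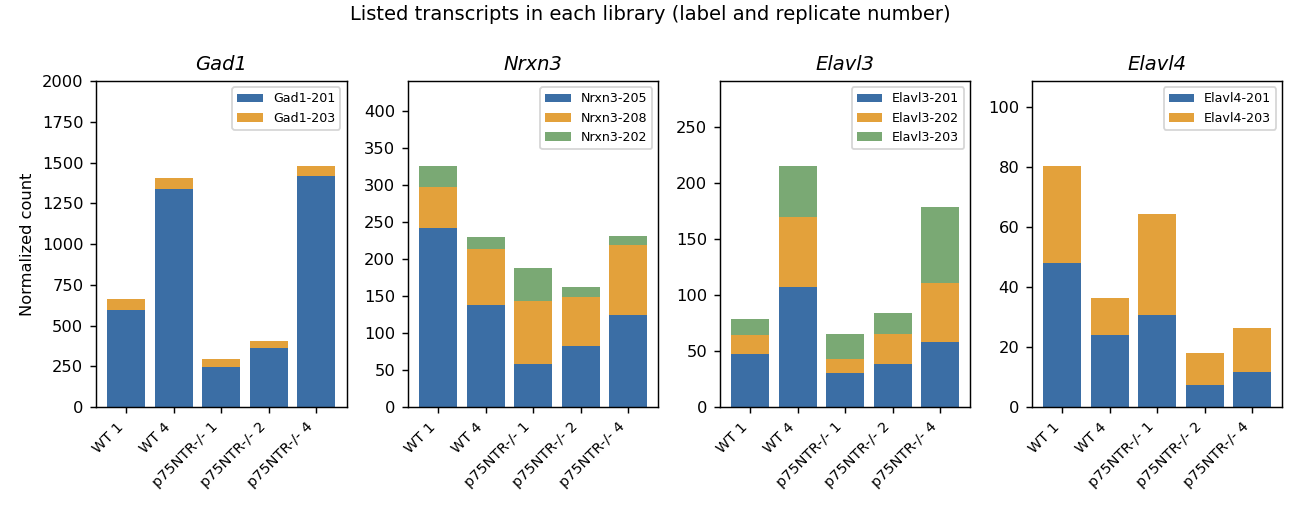
Normalized counts of the listed transcripts of Gad1, Nrxn3, Elavl3 and Elavl4, stacked to the gene sum, in each of the 5 libraries. Gad1-203 stays between 42.0 and 68.7 while Gad1-201 runs from 247 to 1420, and Nrxn3-205 is lower in the 3 libraries labelled p75NTR-/- than in the 2 labelled WT.

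Over all 14 transcripts, none was called between the labels by limma, edgeR or DESeq2. Called were 0.0135% of the 22227 transcripts in limma (3 transcripts) and 0.126% in DESeq2, and 0.0% of the 21197 tested in edgeR. Nrxn3-205 alone had an unadjusted p under 0.05, in edgeR (0.048) and DESeq2 (0.041), and in limma it had 0.065. An unadjusted p under 0.05 was found for 3.14% of all transcripts in limma, 2.52% in edgeR and 4.03% in DESeq2. A total of 3 of 14 did not overlap between the labels, all lower in the p75NTR-/- libraries (Dlx2-201, Gad1-203 and Nrxn3-205), where 7.62% of all transcripts were lower, 8.95% were higher and 16.6% did not overlap in either direction. The median log2 fold change of the 14 was -0.38, beside 0.009 over all transcripts.

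The replicate number separated the genes more often than the label. The 2 libraries numbered 4 did not overlap the other 3 for 4 of 8 genes, higher for Elavl3 and Gad1 and lower for Sox11 and Cd24a, beside 23.3% higher, 21.1% lower and 44.4% in either direction over all gene sums. The share is thus near that of all genes. Of the 14 transcripts, 4 were higher and 2 lower without overlap, beside 19.4%, 18.1% and, in either direction, 37.5% of all transcripts. Sox4 and Elavl4 were lower in the mean of the libraries numbered 4 (0.578-fold and 0.579-fold) with overlap, Dlx2 was higher (1.43-fold) with overlap, and Nrxn3 was level (1.02-fold).

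Some glial markers were split by the replicate number as well. Of 6 astrocyte markers, Gfap, the intermediate filament of astrocytes, and Aqp4, a water channel, were higher in both libraries numbered 4 (2 of 6, beside 23.3% of all gene sums), whereas Aldh1l1, Slc1a2 and Gja1 overlapped and S100b was 0.50-fold in the mean of the libraries numbered 4. Gfap had 241 and 680 normalized counts in the WT libraries and 11.9, 1.20 and 746 in the p75NTR-/- libraries, so that its order over the libraries was close to that of Gad1. Of 5 listed oligodendrocyte lineage markers, Olig1, Olig2 and Cspg4 were lower in both libraries numbered 4 (3 of 5, beside 21.1% of all gene sums), and the list summed to 346 and 364 TPM there and to 632 to 946 TPM in the other 3. The astrocyte list summed to 987 and 1135 TPM in the libraries numbered 4 and to 657, 712 and 1657 in the other 3. All 6 astrocyte markers had a log2 fold change below 0 between the labels (median -0.96, none called), and the radial glia list had a median of -0.17. Of 3 ependymal markers, Foxj1 had 18.3 to 25.2 TPM and Rsph1 1.78 to 3.69, and Tmem212 was not listed. None of 5 microglia and blood markers was listed, and 3 of 6 endothelial and mesenchymal markers held 3.11 to 11.4 TPM in sum. The part of these other cells in the levels of the lineage genes was not tested.

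Other genes of the lineage were read from lists of GABAergic transcription factors, GABA handling, neurogenic and young neuron genes, family partners and glutamatergic genes. Of 69 genes in these lists, 34 were listed and 28 had a mean of at least 50. None was called in limma, edgeR or DESeq2, beside 0.00794%, 0.0% and 0.0556% of all gene sums. An unadjusted p under 0.05 was found for 2 of 34 in each tool (Calb2 and Reln in limma, Abat and Reln in edgeR and DESeq2), beside 2.08%, 2.11% and 2.99% of all gene sums. The labels did not overlap for 5 of 34, with 2 higher (Calb2 and Elavl1) and 3 lower (Abat and Reln among them) in the p75NTR-/- libraries, beside 15.0% of all gene sums. The median log2 fold change was -0.12, with 23 of 34 below 0.

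Among the GABAergic transcription factors, 8 of 17 were listed, with a median log2 fold change of -0.26. The most abundant by normalized count were Zeb2, Etv1 and Meis2, with log2 fold changes of -0.31 (SE 0.32), 0.16 (SE 0.20) and -0.26 (SE 0.27). Zeb2, a zinc finger factor of interneuron migration, had 1446 and 1461 normalized counts in the WT libraries and 856, 1115 and 1670 in the p75NTR-/- libraries. Not listed were Gsx1, Gsx2, Dlx5, Dlx6, Sp8, Lhx6, Lhx8, Nkx2-1 and Isl1.

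Among the genes of GABA handling and interneuron products, 6 of 13 were listed and 5 of the 6 had a log2 fold change below 0 (median -0.84). Reln, which encodes the secreted protein reelin, had 500 and 191 normalized counts in the WT libraries and 138, 103 and 155 in the p75NTR-/- libraries (log2 fold change -1.24, SE 0.46, limma adjusted p = 0.93). Abat, the GABA transaminase that breaks GABA down, had 4724 and 2071 against 1494, 1319 and 1938. The receptor tyrosine kinase gene Erbb4 had 897 and 320 against 235, 350 and 395. In all 3 the library labelled WT replicate 1 was the highest by far, while WT replicate 4 stayed within 1.5-fold of the highest p75NTR-/- library. Calb2, which encodes calretinin and was named after its values were seen, had 11.8 and 14.6 against 41.6, 19.2 and 23.2.

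**Figure D4:**
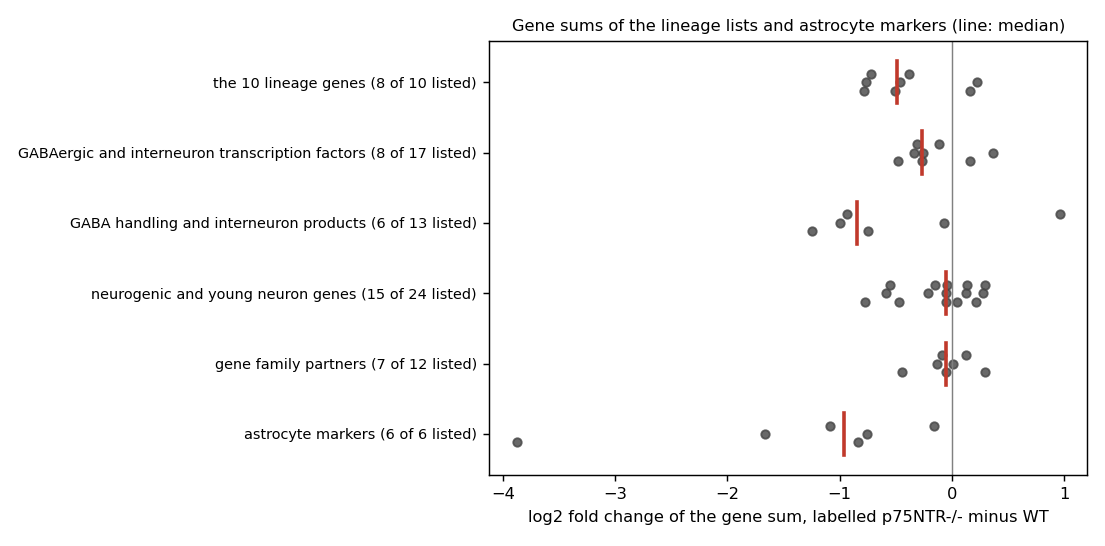
Log2 fold changes between the labels (p75NTR-/- minus WT) of single gene sums, for the lineage genes, 4 lists of related genes and the astrocyte markers, with a line at each median. The medians run from -0.96 for the astrocyte markers to -0.05 for the young neuron genes and the family partners, and no gene was called.

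Of 24 neurogenic and young neuron genes, 15 were listed, 6 with a log2 fold change above 0 and 9 below (median -0.05). The most abundant were Map2, Ncam1, Dclk2 and Dclk1, which encode proteins of microtubules or cell adhesion. Dclk1 and Dclk2 are the listed relatives of Dcx. Dclk1 had 1040 and 2109 normalized counts in the WT libraries and 1194, 1070 and 2290 in the p75NTR-/- libraries, 2.00-fold higher in the mean of the libraries numbered 4. Dclk2 stayed between 1386 and 1707, with a log2 fold change of 0.12 (SE 0.17). Map2 was lower in both libraries numbered 4 (0.63-fold) and Ncam1 was higher (1.51-fold).

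In this list, 10 of 15 genes did not overlap between the libraries numbered 4 and the others, 6 higher and 4 lower. Over all gene sums, 23.3% were higher, 21.1% lower and 44.4% apart in either direction. Among all 34 genes of the lists 17 did so, 9 higher and 8 lower, near the 44.4% of all gene sums in either direction. Stmn4, a microtubule regulator named after its values were seen, showed a ratio of 7.21, with 139 and 120 normalized counts in the libraries numbered 4 and 15.6 to 21.6 in the other 3. Gap43, a growth cone protein, had 547 and 415 against 134, 277 and 270.

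Nrxn2, a neurexin relative of Nrxn3, had 3975 and 2374 normalized counts in the WT libraries and 3175, 3098 and 2251 in the p75NTR-/- libraries (log2 fold change -0.13, SE 0.30). For Nrxn2, as for Nrxn3, the library labelled WT replicate 1 was the highest of the 5.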

How the data were processed

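RNA-Seq values of 5 mouse NSPC libraries, 2 labelled WT and 3 labelled p75NTR-/-, were used. The libraries are strand-specific (TruSeq Stranded mRNA, 500 ng RNA). The authors quantified reads with Salmon 0.10.2 on the GRCm38.p6 transcripts of Ensembl, imported them with tximport and normalized them with DESeq2 1.22.0 in R 3.6.1.

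The deposited signal of a library is a count divided by its size factor plus 0.5. The authors' TPM, also taken as a deposited signal, were used for levels across genes. The deposited score (baseMean), the deposited log2 fold change and the deposited p-value columns are the authors' own. Of these only the lowest baseMean was used. Repeated lines (303 of 22530) were dropped.

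The normalized count is the deposited value minus 0.5. In each library 100% of the values were whole multiples (tolerance 0.01) of 0.981 to 1.20 normalized counts, which gave counts for the tests on counts. A level at 0 would allow 3 counts. Transcripts were added up by symbol. limma 3.58.1 (log2 of value + 1, R 4.3.3) was run over all gene sums and over all transcripts, with 5 libraries and no covariate. Calls took a mean of 50, a 1.5-fold change and an adjusted p under 0.05. edgeR 4.0.16, run after its expression filter, DESeq2 1.42.0 and other settings were alternatives. The limma step was tested on simulated counts of gene sums, and the edgeR and DESeq2 steps were not. Sequences and coordinates came from GENCODE M21 by transcript identifier.

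The 10 genes and the lists were chosen with earlier results of these data known. Named were the 10 genes, genes of the lists that were called, the 4 with the highest mean of each lineage list, members of the gene families, the 3 genes most like Gad1 (mean of at least 50), and Ngfr. Gfap, Aqp4, Calb2, Stmn4 and Gap43 were described outside this rule, after their values were seen. Some genes that the rule names are not reported here.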

Additional observations from a re-analysis of the deposited data

How the results depend on the processing

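The count of calls was 0 under all 15 alternatives for the 8 genes, the 14 transcripts and the 34 genes of the lists. These were pseudocounts of 0.5 and 10, a minimum mean of 10 in the fit, no minimum mean for a call, TMM factors, TPM, edgeR, DESeq2, the replicate block, each library left out in turn, and leaving out both libraries numbered 4, which was chosen after seeing the data. Over all gene sums the main limma fit called 0.00794%, DESeq2 0.0556% and edgeR 0.0% of those it tested. Shares over all gene sums under the other alternatives are not given here. With so few calls over all genes, a count of 0 does not show that these genes were unchanged. Of 116 recomputed log2 fold changes of single genes, which also took the most abundant transcript in place of a sum, 112 kept their direction. The exceptions were Sox4 (0.27 without WT replicate 1), Elavl3 (0.34 without WT replicate 4) and Sox11 (-0.0076 without p75NTR-/- replicate 2 and also with the replicate block), and the cause was not tested beyond the library left out. With each library left out in turn, Sox4 ran from -1.20 to 0.27, Elavl3 from -1.11 to 0.34 and Sox11 from -0.0076 to 0.44. The median log2 fold change of the 8 genes, -0.49, ran from -0.65 (without p75NTR-/- replicate 4) to -0.23 (without WT replicate 1), and was -0.92 without both libraries numbered 4. For scale, the median log2 level of the 8 genes in a library had a within-label SD of 0.238. This SD is a spread of levels between libraries and not an error of the median log2 fold change.

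With the replicate block, which drops the unpaired p75NTR-/- replicate 2 from the contrast, Gad1 had a log2 fold change of -0.55. In this fit 0 of 8 genes were called, and the share of all gene sums called is not given. Over 10786 genes the deviations from the label means correlated by 0.256 between the libraries numbered 1 and by 0.476 between those numbered 4. The labels do not say what the number marks, and with 2 pairs the pairing was not taken as given.

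With 2 against 3 libraries, the intervals of 6 of 8 genes (not Sox11 and Cd24a) include changes of more than 1.5-fold in the lower direction. In the higher direction the intervals of Sox11 (up to 1.02) and Cd24a (up to 0.76) include such changes. So do those of the other genes except Nrxn3 (up to 0.14). Dlx2 rests on 4 to 15 counts a library.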
